A study of Mus musculus with 12 samples.

Results

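The genes described here are Elovl1, Elovl2, Elovl3, Elovl5 and Fads2, which encode 4 elongases of very-long-chain fatty acids and a desaturase that works with them. They were found in the count table of mouse liver RNA-seq by matching Ensembl identifiers to GENCODE vM1 gene names, and all 5 had a row of their own among the 51609 rows. All 5 passed the filter on low counts and were among the 17652 genes tested.

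Elongases of the ELOVL family carry out the rate-limiting condensation step of fatty acid elongation in the endoplasmic reticulum, after which Hsd17b12, the Hacd enzymes and Tecr complete the cycle. Elovl2 and Elovl5 act on polyunsaturated acyl-CoAs, and Fads2 catalyses the initial desaturation of the essential fatty acids linoleic and alpha-linolenic acid, so that these enzymes together lead to arachidonic and docosahexaenoic acid. Elovl1 and Elovl3 act mainly on saturated and monounsaturated acyl-CoAs, and Elovl3 in mouse liver is known to be higher in males and to vary over the day.

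The 12 libraries came from livers of C57BL/6 mice aged 5 to 7 weeks, of male and female animals, with 3 mice in each of 4 groups. Untreated mice drank water, and treated mice drank 2% dextran sodium sulfate (DSS), a polymer that injures the colon epithelium, for 6 days. The study's methods describe the wild-type mice as Cre-negative littermates with floxed Rela and Stat3, so they carry the floxed alleles too, and the knockout mice as carrying Cre under the albumin promoter, which deletes both genes in hepatocytes and leaves them in the other cells of the liver. Libraries were made from liver RNA after removal of rRNA and read from both ends. The groups were used as labelled, and the libraries are called wild-type or labelled knockout, untreated or DSS, with the replicate number of the label.

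Total estimated counts ran from 65879529 to 82850098 per library. Levels are given as CPM, estimated counts scaled to the TMM-adjusted library size, in which 3 counts correspond to 0.0359 to 0.0478 CPM, and that limit covers counting error only. The targeted genes were read as whole-gene counts, which include exons outside the deleted part and cells other than hepatocytes. Rela, the NF-kB subunit, lay between 39.8 and 55.5 CPM in the 6 wild-type libraries and between 39.5 and 62.3 CPM in the 6 labelled knockout, with a log2 difference of -0.03 (SE 0.19, edgeR adjusted p = 0.961) without treatment. Stat3 lay between 45.7 and 330 CPM in wild-type and between 43.0 and 74.8 CPM in labelled knockout libraries, and its difference after DSS was -1.99 (SE 0.56, adjusted p = 0.175). These counts therefore did not separate the genotypes, and directions between genotypes below rest on the labels. The 7 measured hepatocyte markers summed to between 101262 and 185643 CPM in all libraries, with albumin the highest. The 6 adipocyte markers summed to between 0.307 and 1.99 CPM, mostly Cidec, which was read in all libraries. Of them Adipoq was at 0 counts in 10 of the 12 libraries, all but wild-type untreated replicate 2 and labelled knockout untreated replicate 2. In bulk tissue, fewer cells of a type and less RNA per cell cannot be told apart.

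In the mm9 genome, Elovl1 (ENSMUSG00000006390) lies at chr4:118100698-118105558 on the plus strand and shares 53 exonic bases with Cdc20 on the minus strand. Elovl2 (ENSMUSG00000021364) lies at chr13:41277864-41315774 on the minus strand. Elovl3 (ENSMUSG00000038754) lies at chr19:46206387-46210184 on the plus strand and shares 10 exonic bases with Pitx3 on the minus strand. Elovl5 (ENSMUSG00000032349) lies at chr9:77765171-77832326 on the plus strand, and Fads2 (ENSMUSG00000024665) at chr19:10138654-10175993 on the minus strand. Whether counting used strand was not stated, so reads in the shared bases of Elovl1 and Elovl3 could not be assigned to a strand.

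RefSeq promoter windows in the GRCm38.p6 build were matched for 4 of the 5 genes, and Elovl3 was not matched. Those of Elovl2, Elovl5 and Fads2 are shown because these enzymes serve the same polyunsaturated pathway and their levels were lowest in the same liver, as given below. Each line holds the 250 bases before the annotated start, read 5′ to 3′ on the gene's strand. Capitals mark matches, on either strand, to the sterol response element TCACNCCAC, the NF-Y box CCAAT, the GC box GGGCGG, the E-box CACGTG or the D-box TTATGNAA.
Elovl2, chr13:41220404-41220653, minus strand: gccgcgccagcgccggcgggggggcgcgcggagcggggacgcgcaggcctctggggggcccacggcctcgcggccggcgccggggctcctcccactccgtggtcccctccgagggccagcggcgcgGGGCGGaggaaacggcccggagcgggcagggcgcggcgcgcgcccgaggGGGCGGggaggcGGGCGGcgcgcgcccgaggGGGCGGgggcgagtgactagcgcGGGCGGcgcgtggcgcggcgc
Elovl5, chr9:77917115-77917364, plus strand: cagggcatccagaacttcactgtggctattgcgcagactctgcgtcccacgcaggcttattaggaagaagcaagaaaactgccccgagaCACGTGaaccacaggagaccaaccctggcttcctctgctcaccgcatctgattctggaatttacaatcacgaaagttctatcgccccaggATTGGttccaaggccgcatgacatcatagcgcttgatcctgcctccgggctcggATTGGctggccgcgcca
Fads2, chr19:10101504-10101753, minus strand: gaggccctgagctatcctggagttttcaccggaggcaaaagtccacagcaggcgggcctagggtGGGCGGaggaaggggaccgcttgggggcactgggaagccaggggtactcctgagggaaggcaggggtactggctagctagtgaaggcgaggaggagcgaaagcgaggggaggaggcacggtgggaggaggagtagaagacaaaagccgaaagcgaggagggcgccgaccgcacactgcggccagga
The Elovl2 window shown held 5 GC boxes and none of the other motifs, and a second RefSeq entry of Elovl2, at chr13:41220163-41220412, held none of the 5 motifs. That of Elovl5 held 2 NF-Y boxes, at 71 to 67 and 17 to 13 bases before the start, and 1 E-box at 161 to 156 bases, and no GC box. The Fads2 window held 1 GC box, at 186 to 181 bases before the start. No 2 matches overlapped in these windows, and none held the sterol response element or the D-box in these letters. Among all 32851 windows of 250 bases, the GC box was found in 32.7%, the NF-Y box in 33.8%, the E-box in 6.02%, the D-box in 3.07% and the sterol response element in 1.05%.

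Levels were compared between genes per kilobase of exon. Fads2 had the highest group means, at 350 ± 126, 328 ± 214, 494 ± 98.8 and 441 ± 28.9 CPM per kilobase (SD, n = 3 each) in wild-type untreated, wild-type DSS, labelled knockout untreated and labelled knockout DSS livers. Elovl2 came next, at 241 ± 35.9, 176 ± 103, 203 ± 19.3 and 240 ± 39.6 CPM per kilobase. The ranges of Fads2 and Elovl2 overlapped in both wild-type groups and did not overlap in either labelled knockout group. Elovl5 followed at 157 ± 33.4, 126 ± 92.9, 163 ± 96.4 and 159 ± 21.4 CPM per kilobase, and its range overlapped that of Elovl2 in wild-type DSS and labelled knockout untreated livers only. Elovl1, at 25.5 ± 11.8, 16.2 ± 2.61, 18.7 ± 2.81 and 16.0 ± 2.10 CPM per kilobase, lay below these in every group. Elovl3 had no fixed place in this order. It was below Elovl1 in every untreated wild-type and every labelled knockout DSS library, at group means of 3.16 ± 1.13 and 0.119 ± 0.0483, and overlapped Elovl1 in the other groups, at 23.8 ± 21.7 in wild-type DSS and 66.0 ± 73.8 in labelled knockout untreated livers.

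**Figure D1:**
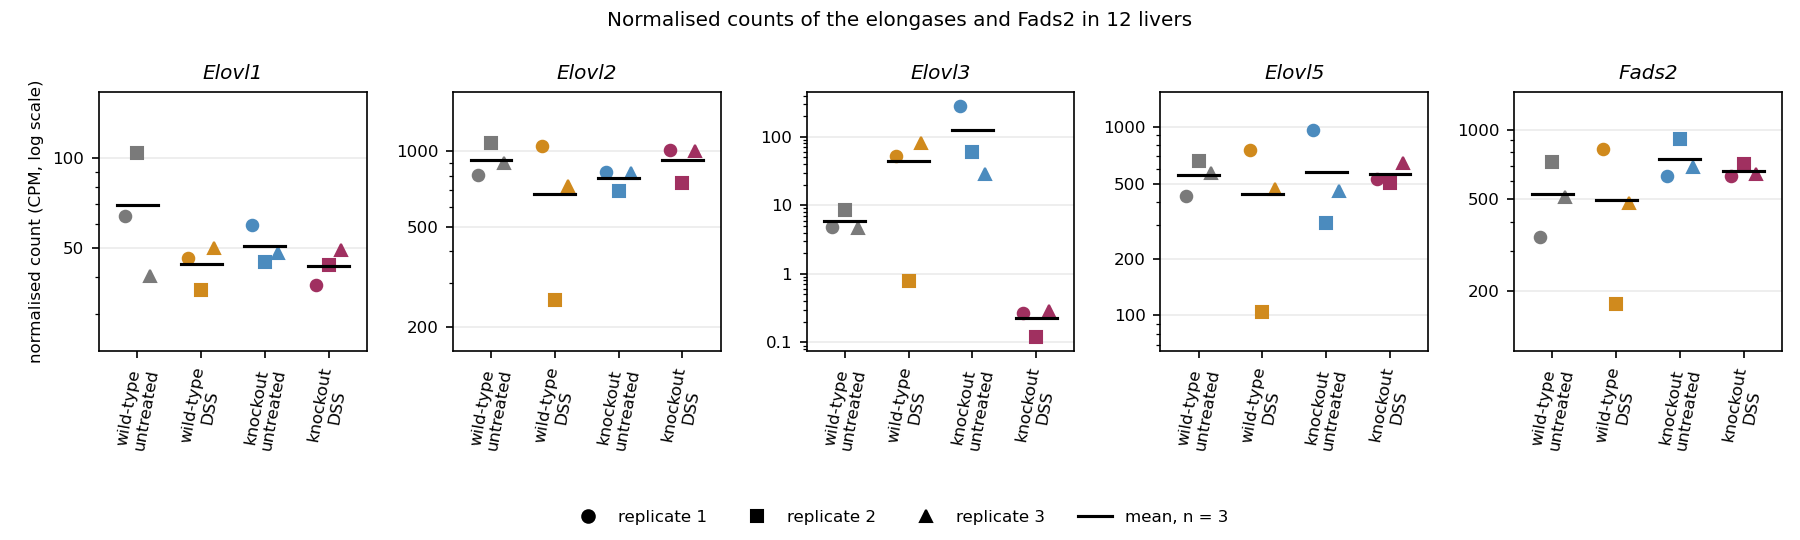
Normalised counts (CPM, log axis, with its own range in each panel) of the 5 genes in 12 livers. Symbols are libraries by replicate number and bars are means of 3, and Elovl3 spans 0.120 to 284 CPM while the wild-type DSS replicate 2 (square) is the lowest point in the other 4 panels.

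Elovl3, which makes saturated and monounsaturated very-long-chain acyl-CoAs, was the gene that differed most between groups. In untreated wild-type livers it measured 4.80, 8.41 and 4.65 CPM in replicates 1, 2 and 3. In wild-type livers after DSS it measured 52.2, 0.780 and 81.5 CPM. Replicates 1 and 3 of the DSS group were above every untreated wild-type liver and replicate 2 was below all of them, so the groups overlapped. In untreated labelled knockout livers Elovl3 measured 284, 60.0 and 29.1 CPM. In labelled knockout livers after DSS it measured 0.271, 0.120 and 0.283 CPM, from 19, 10 and 20 counts. These 3 livers were the lowest of all 12, and none overlapped any other group.

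After DSS in labelled knockout livers Elovl3 fell, with group means of 124 and 0.224 CPM, a ratio of 554 that rested most on labelled knockout untreated replicate 1. The log2 fold change was -9.12 (SE 1.82, 95% interval -13.27 to -4.98, edgeR quasi-likelihood adjusted p = 0.0224), and without that liver it was -7.64 (adjusted p = 0.0448). Elovl3 was the only 1 of the 5 genes called in this comparison, in which 7.02% of all tested genes were called, 4.57% higher and 2.46% lower. It was also the only 1 whose groups did not overlap, as held for 31.8% of all tested genes. The exact two-sided permutation test on log2(CPM + 0.5) gave p = 0.1, the smallest that 3 mice against 3 allow. The call was lost (adjusted p 0.0661 to 0.101) on leaving out labelled knockout DSS replicate 1, 2 or 3 or labelled knockout untreated replicate 2, and limma-voom gave -8.70 (adjusted p = 0.140).

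All 3 labelled knockout DSS livers also differed from the others in sex-linked transcripts. Xist, the transcript of the inactive X chromosome, measured 903 to 1283 CPM in them and 0.235 to 29.0 CPM in the untreated labelled knockout livers. The summed Y-linked genes Ddx3y, Uty, Kdm5d and Eif2s3y measured 0.0424 to 0.120 CPM and 175 to 215 CPM in the same groups. Sex in these transcripts and DSS treatment therefore cannot be told apart within the labelled knockout livers. With sex read from Xist as a covariate in the fit over all libraries, the Elovl3 estimate was -8.61 (adjusted p = 0.368), and 4 of all genes tested were called.

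Outside that group Xist was high in 1 liver, untreated wild-type replicate 3, at 1143 CPM with a Y-linked sum of 30.1 CPM, against 188 and 241 CPM in the other two of its group. Elovl3 in this liver, 4.65 CPM, was close to the 4.80 CPM of replicate 1. Of 12 liver genes listed as male-biased, 5 were tested, all 5 had lower estimates after DSS in labelled knockout livers, and 2 were called, C6 at -2.36 (SE 0.48, adjusted p = 0.0172) and Nudt7 at -2.54 (SE 0.65, adjusted p = 0.0432). Of 13 listed as female-biased, 7 were tested, all 7 had higher estimates, and 2 were called, Hao2 at 6.34 (SE 1.45, adjusted p = 0.0355) and Slc22a26 at 5.65 (SE 0.97, adjusted p = 0.0123). After DSS in wild-type livers all 7 had lower estimates, with a median of -5.23, 5 had an unadjusted p under 0.05, and edgeR called 0, DESeq2 4 and limma-voom 1. In labelled knockout livers after DSS, DESeq2 called 5 male-biased genes lower and 4 female-biased genes higher, and limma-voom 4 and 4. On leaving out 1 library in turn, the calls of C6, Nudt7, Hao2 and Slc22a26 were lost without 4, 8, 7 and 1 of the 12. The part of sex in the Elovl3 difference beyond that covariate was not tested.

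**Figure D2:**
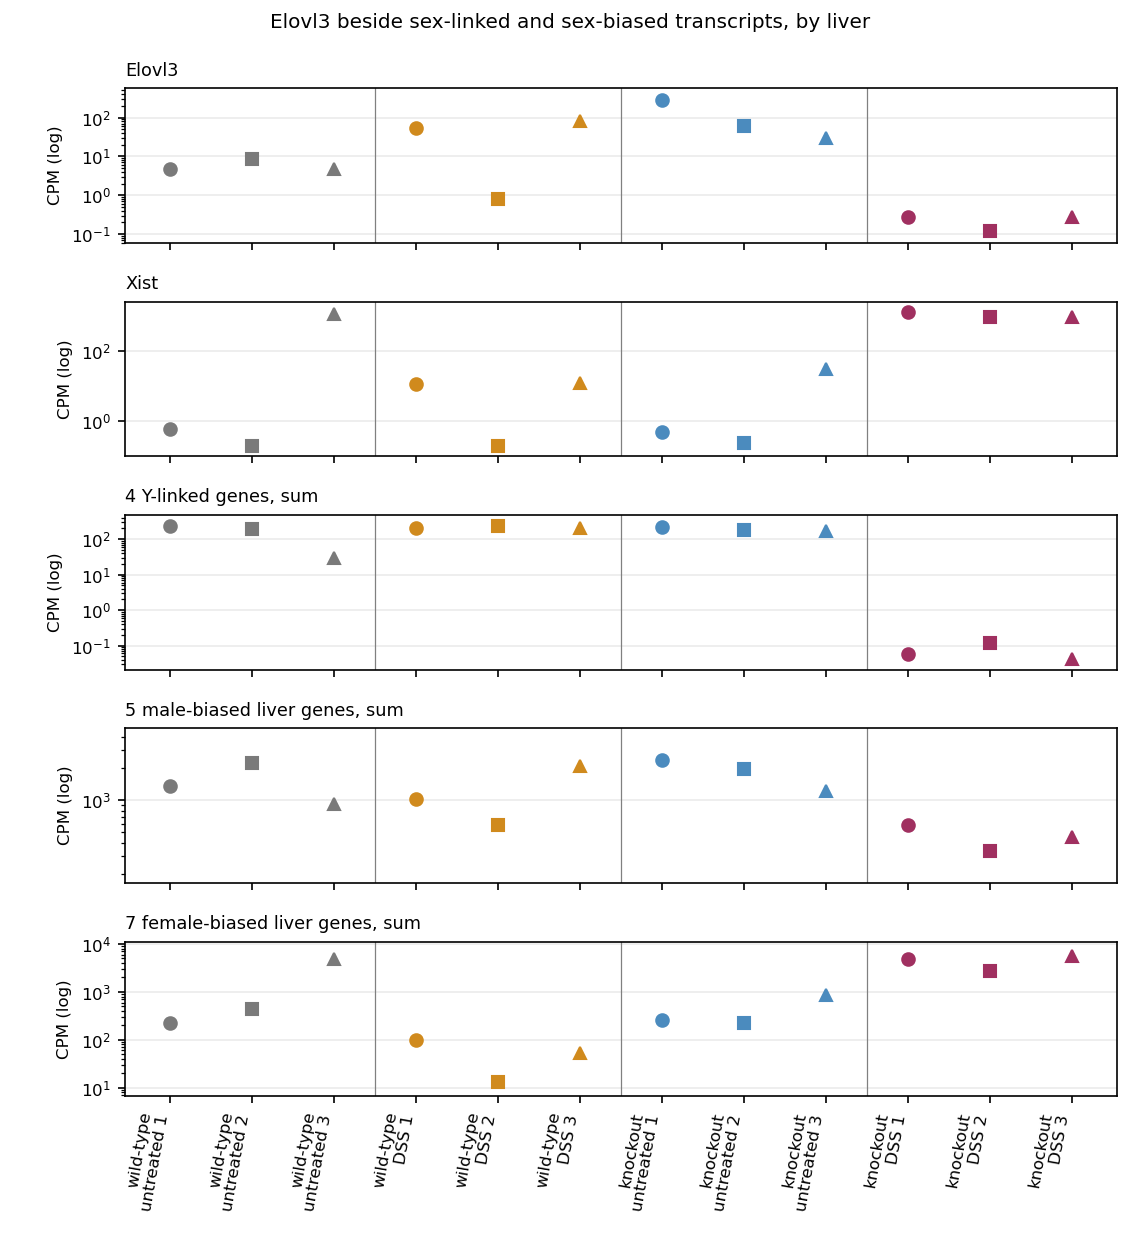
CPM (log axes) of Elovl3, Xist, the sum of 4 Y-linked genes, the sum of 5 male-biased and the sum of 7 female-biased liver genes in each of the 12 livers. The 3 labelled knockout DSS livers have the lowest Elovl3 and Y-linked values. Wild-type untreated replicate 3 also has high Xist, but a Y-linked sum of 30.1 CPM against at most 0.120 CPM in them. Its Elovl3 level is higher than theirs, and its sex is not clear from these transcripts.

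Clock genes moved in the same livers. Of 17 tested, 13 had lower and 4 higher estimates after DSS in labelled knockout livers. There edgeR called 8 lower and 0 higher, where 2.46% of all tested genes were called lower. DESeq2 called 11 lower and 0 higher, and limma-voom 7 lower and 1 higher. The 8 included Dbp at -4.01 (SE 0.92, adjusted p = 0.0314), Per3 at -3.78 (SE 0.78, adjusted p = 0.0213) and Tef at -2.86 (SE 0.44, adjusted p = 0.00623). The calls of Dbp and Per3 were each lost without 5 of the 12 libraries, and all 8 with sex from Xist as a covariate. Arntl and Npas2 were higher after DSS without overlap, at 37.9 to 48.1 against 14.3 to 31.9 CPM and 13.3 to 17.0 against 0.607 to 5.80 CPM. Dbp shares 491 exonic bases with Sphk2 on the other strand. The summed level of the 17 clock genes, which adds genes of both directions, was 408 to 479 CPM after DSS and 734 to 909 CPM without it. In wild-type livers edgeR called 0 of the 17, 5 had an unadjusted p under 0.05, and DESeq2 and limma-voom each called 1. The sums there were 494 to 750 CPM after DSS and 704 to 762 CPM without it. Between labelled genotypes without treatment, 7 of the 17 had an unadjusted p under 0.05. There edgeR called 1 lower, DESeq2 3 higher and 1 lower, and limma-voom 1 higher and 2 lower. Between labelled genotypes after DSS, 9 of the 17 had an unadjusted p under 0.05. There edgeR called 2 lower, DESeq2 1 higher and 6 lower, and limma-voom 1 lower. The hour at which livers were taken was not given in the sources used here, and the part of the clock in the Elovl3 difference was not tested. Kupffer cell markers summed to 775 to 1202 CPM in labelled knockout DSS and 401 to 442 CPM in labelled knockout untreated livers, and 8 of the 9 rose, each a call lost without 3 to 8 of the 12 libraries and with sex from Xist as a covariate. Neutrophil markers summed to 6.58 to 23.5 CPM and 0.345 to 0.798 CPM in these groups, and all 5 tested had an unadjusted p under 0.05, of which edgeR called 0, DESeq2 4 and limma-voom 1. The hepatocyte marker sums, mostly albumin, overlapped between these groups, at 144997 to 185643 and 143952 to 159390 CPM. Hnf4a, a gene of that list, did not overlap, at 624 to 797 CPM after DSS and 1144 to 1226 CPM without it. In wild-type livers after DSS 8 of the 9 Kupffer cell markers had higher estimates, with a median of 0.64. At an unadjusted p under 0.05 there were 7, and edgeR, DESeq2 and limma-voom each called 0. All 5 neutrophil markers tested had higher estimates there, and 4 had an unadjusted p under 0.05. Of these markers edgeR called 0, DESeq2 3 and limma-voom 0.

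The other Elovl3 comparisons did not pass the threshold in edgeR. Without treatment the labelled knockout livers, at 124 ± 139 CPM (SD, n = 3), all lay above the wild-type ones, at 5.95 ± 2.13 CPM, with a log2 difference of 4.38 (SE 1.40, 95% interval 1.20 to 7.57, adjusted p = 0.308). The ratio of means was 20.9 and rested most on replicate 1, and without that liver the estimate was 2.90 (adjusted p = 0.453). After DSS the labelled knockout livers all lay below the wild-type ones, at 0.224 ± 0.0909 against 44.8 ± 40.9 CPM, with a log2 difference of -7.65 (SE 1.74, 95% interval -11.61 to -3.70, adjusted p = 0.116). Xist, at 0.191 to 11.9 CPM, and the Y-linked sum, at 205 to 228 CPM, in these wild-type livers did not overlap those of the labelled knockout DSS livers either, so sex in these transcripts and genotype cannot be told apart here, and with sex from Xist as a covariate the estimate was -7.14 (adjusted p = 0.790). DSS in wild-type livers gave 2.91 (SE 1.32, 95% interval -0.08 to 5.90, adjusted p = 0.354, exact permutation p = 0.4).

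The difference between the DSS responses, labelled knockout minus wild-type, was -12.04 for Elovl3 (SE 2.24, 95% interval -17.12 to -6.96, adjusted p = 0.0676). Without wild-type DSS replicate 2 the interaction was -12.61 (adjusted p = 0.0177) and the genotype difference after DSS -8.23 (adjusted p = 0.0458), both past the threshold. Without wild-type untreated replicate 3 as well, these were -12.48 (adjusted p = 0.0485) and -8.23 (adjusted p = 0.0526). The interaction includes the labelled knockout DSS livers and so cannot be told apart from sex in these transcripts either, and with sex from Xist as a covariate it was -11.37 (adjusted p = 0.646). The DESeq2 Wald test called Elovl3 in the 3 comparisons that edgeR did not call outside wild-type DSS, with adjusted p = 0.0164 without treatment, 1.23e-07 after DSS and 8.69e-10 for the interaction, and limma-voom called it in none of them.

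**Figure D3:**
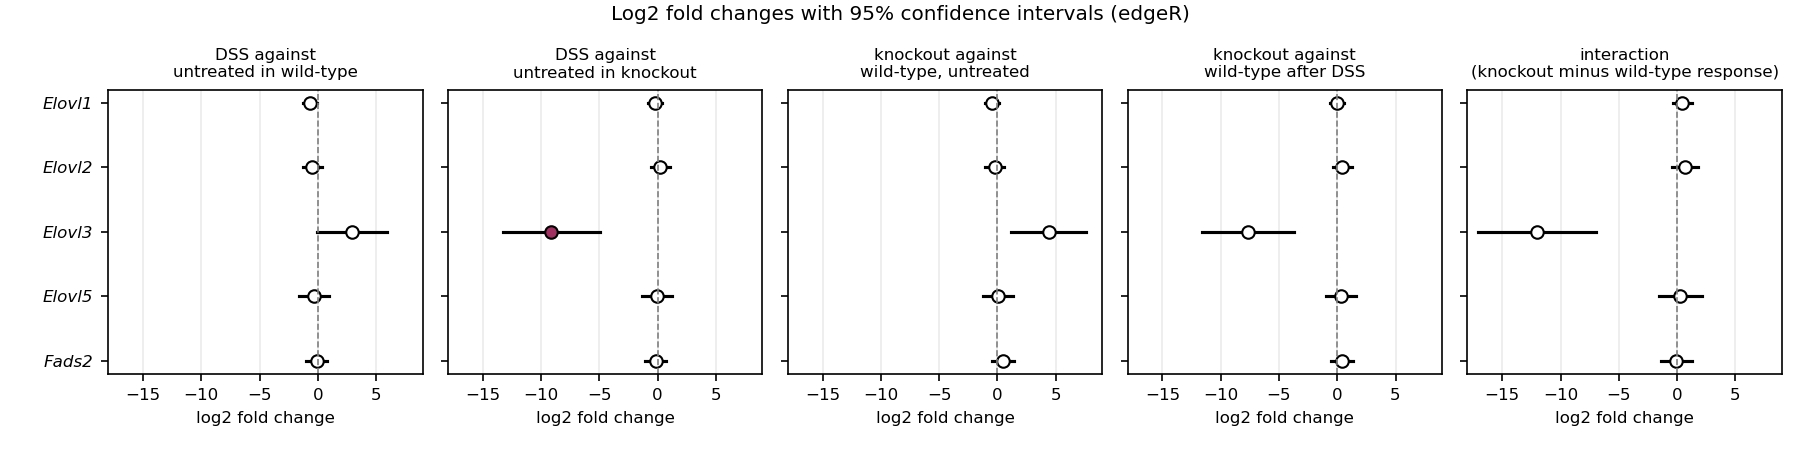
Log2 fold changes of the 5 genes in each comparison (circles) with 95% confidence intervals (lines) from edgeR, and filled circles mark an adjusted p under 0.05. Elovl3 after DSS in labelled knockout livers, at -9.12, is the filled point, and the other 4 genes lie between -0.65 and 0.69 throughout.

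Elovl2, which elongates the longest polyunsaturated acyl-CoAs towards docosahexaenoic acid, measured 807, 1078 and 896 CPM in untreated and 1047, 256 and 729 CPM in DSS-treated wild-type livers. It measured 829, 695 and 819 CPM in untreated and 1015, 747 and 1007 CPM in DSS-treated labelled knockout livers. All groups overlapped, and 11 of the 12 livers lay between 695 and 1078 CPM. The log2 fold change after DSS was -0.45 (SE 0.36, 95% interval -1.24 to 0.34) in wild-type and 0.24 (SE 0.36, -0.55 to 1.03) in labelled knockout livers, with adjusted p = 0.622 and 0.734. The wild-type value was -0.07 without wild-type DSS replicate 2 and -0.91 without replicate 1.

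Elovl5, the elongase next in that pathway to Fads2, measured 427, 660 and 571 CPM in untreated and 757, 104 and 465 CPM in DSS-treated wild-type livers. Labelled knockout livers measured 957, 311 and 455 CPM untreated and 529, 505 and 646 CPM after DSS. Replicates spread more in the wild-type DSS and labelled knockout untreated groups, by ratios of 7.30 and 3.08 between highest and lowest, than in the other groups, at 1.55 and 1.28. The log2 fold change after DSS was -0.32 (SE 0.58, 95% interval -1.61 to 0.97) in wild-type and -0.04 (SE 0.58, -1.32 to 1.25) in labelled knockout livers, with adjusted p = 0.858 and 0.978. The wild-type value ran from -0.96 without wild-type DSS replicate 1 to 0.14 without replicate 2. The labelled knockout value ran from -0.33 without labelled knockout untreated replicate 2 to 0.55 without replicate 1.

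Fads2, the desaturase, measured 344, 724 and 514 CPM in untreated and 823, 176 and 484 CPM in DSS-treated wild-type livers. Labelled knockout livers measured 631, 914 and 692 CPM untreated and 632, 714 and 647 CPM after DSS. The 6 labelled knockout livers lay within 631 to 914 CPM, inside the 176 to 823 CPM of the 6 wild-type livers but for 1. The log2 difference between genotypes was 0.50 (SE 0.43, 95% interval -0.43 to 1.43, adjusted p = 0.701) without treatment and 0.43 (SE 0.43, -0.50 to 1.36, adjusted p = 0.706) after DSS, and the second value ran from 0.021 without wild-type DSS replicate 2 to 1.01 without replicate 1. DSS gave -0.09 (SE 0.43, -1.02 to 0.83) in wild-type and -0.17 (SE 0.43, -1.09 to 0.76) in labelled knockout livers. This wild-type value ran from -0.67 without wild-type DSS replicate 1 to 0.31 without replicate 2. The labelled knockout value was 0.0097 without labelled knockout untreated replicate 2.

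Elovl1, which supplies saturated very-long-chain acyl groups to sphingolipids, measured 64.1, 104 and 40.3 CPM in untreated and 46.3, 36.2 and 50.0 CPM in DSS-treated wild-type livers. Labelled knockout livers measured 59.5, 44.9 and 48.2 CPM untreated and 37.7, 44.0 and 49.1 CPM after DSS. The 10 livers other than wild-type untreated replicates 1 and 2 lay between 36.2 and 59.5 CPM. In wild-type livers DSS gave -0.65 (SE 0.27, 95% interval -1.24 to -0.07), with an unadjusted p of 0.0315, an adjusted p of 0.287 and an exact permutation p of 0.3, and without the highest liver the estimate was -0.24. In labelled knockout livers DSS gave -0.22 (SE 0.27, -0.81 to 0.36).

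By edgeR, 0 of the 5 genes were called for DSS in wild-type livers, where 0.685% of all tested genes were called, and 0 had groups that did not overlap, against 18.7% of all tested genes. At an unadjusted p under 0.05 the count was 1, Elovl1, and DESeq2 and limma-voom each called 0. Between genotypes without treatment edgeR called 0 of the 5, against 0.0623% of all tested genes, and Elovl3 was the 1 gene with groups that did not overlap, against 20.2%. After DSS edgeR called 0 of the 5, against 0.334% of all tested genes, and Elovl3 was again the 1 gene without overlap, against 16.8%. For the interaction edgeR called 0 of the 5, against 0.408%. In each of these 3 comparisons 1 of the 5, Elovl3, had an unadjusted p under 0.05, DESeq2 called 1 and limma-voom called 0.

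Wild-type DSS replicate 2 held the lowest level of all 12 livers for Elovl1, Elovl2, Elovl5 and Fads2, and the lowest of the 9 livers outside the labelled knockout DSS group for Elovl3. Of all tested genes, 13.0% were lowest in that liver. Relative to the mean of replicates 1 and 3 of its group, its level was 28.9% for Elovl2, 17.0% for Elovl5, 27.0% for Fads2, 75.2% for Elovl1 and 1.17% for Elovl3. The same liver had the lowest TMM factor, 0.758, and the highest neutrophil marker sum, 87.7 CPM against 2.81 and 5.73 CPM in the other livers of its group and 0.345 to 23.5 CPM elsewhere. S100a8 and S100a9, the neutrophil calprotectin chains, made up most of that sum at 38.2 and 39.2 CPM. Its Kupffer cell marker sum was also the highest of its group, 1097 CPM against 683 and 509 CPM. Its hepatocyte marker sum, mostly albumin, was 101262 CPM against 156639 and 104872 CPM in replicates 1 and 3. Its members did not move together, Cps1 being at 3726 CPM against 8120 and 6721 CPM, Tat at 1802 CPM against 833 and 783 CPM and Hnf4a at 893 CPM against 702 and 945 CPM. What moved with the 5 genes in this liver was not tested further.

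Across the 12 livers, Elovl2 and Elovl5 were the most alike pair of the 5 genes in log2 CPM (Pearson r = 0.91), followed by Elovl2 with Fads2 (0.79) and Elovl5 with Fads2 (0.72). Without wild-type DSS replicate 2, over 11 livers, these values were 0.61, 0.15 and 0.08, so they rested largely on that liver. Elovl3 was little like the others, at 0.15 to 0.31 over the 12 livers. Among all tested genes with a symbol, those most like each gene were Gpd2 (0.94), Elovl2 (0.91) and Arhgap24 (0.90) for Elovl5, Txnl4b (0.95), Pctp (0.93) and Maob (0.92) for Elovl2, and Decr2 (0.93), Gcap14 (0.90) and Gm10382 (0.88) for Fads2. For Elovl3 they were Foxn3 (0.93), Aldh1a1 (0.93) and Trhde (0.92), and for Elovl1 Aqp7 (0.92), Gtl3 (0.90) and Gpam (0.90). With each group mean taken away, the gene most like each was Acsl1 (0.98), an acyl-CoA synthetase, for Elovl2, Ccdc109a (0.98) for Elovl5, Gm12216 (0.94) for Fads2, Rnf125 (0.97) for Elovl3 and Spryd4 (0.95) for Elovl1. Whether the 12 libraries were prepared together was not given in the sources used here. Each of these genes was picked as among the most alike of 17652 genes or fewer, so its value describes these livers only.

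The remaining enzymes of elongation and desaturation came from a list of 16 genes, of which 12 were tested. In labelled knockout livers after DSS 2 fell and 0 rose, Scd1 and Elovl6, with a list median of -0.19 beside -0.01 for all tested genes, and DESeq2 called 4 lower and limma-voom 3. Elovl6, the elongase of palmitate, measured 231, 194 and 146 CPM untreated and 58.8, 70.0 and 112 CPM after DSS, a log2 fold change of -1.25 (SE 0.32, adjusted p = 0.0341). With sex from Xist as a covariate the Elovl6 estimate was -0.53 (adjusted p = 0.781). Scd1, which makes monounsaturated fatty acids, measured 17700, 8896 and 6809 CPM untreated and 1730, 1351 and 1297 CPM after DSS, a log2 fold change of -2.93 (SE 0.47, adjusted p = 0.00499). Neither overlapped between these groups. In wild-type livers 0 of the 12 were called by edgeR, the list median was -0.22 beside 0.02 for all tested genes, and 4 had an unadjusted p under 0.05. There Elovl6 gave -1.38 (SE 0.32, adjusted p = 0.0710) and Scd1 -2.10 (SE 0.45, adjusted p = 0.0537), and the DESeq2 Wald test called 3 of the 12, both of these included, and limma-voom 0. The interaction was 0.13 (SE 0.44) for Elovl6 and -0.83 (SE 0.61) for Scd1, with adjusted p = 0.910 and 0.521.

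The enzymes that complete the elongation cycle did not pass the edgeR test. In labelled knockout livers after DSS Hsd17b12, the ketoacyl-CoA reductase, gave -0.06 (SE 0.17) and Tecr, the enoyl-CoA reductase, -0.67 (SE 0.20, adjusted p = 0.0657). In wild-type livers they gave 0.18 (SE 0.17) and 0.12 (SE 0.20). Fads3 gave -0.61 (SE 0.38) in wild-type and -0.12 (SE 0.38) in labelled knockout livers. Elovl4 was in the table and too low to test, and Fads1, Scd2 and Scd3 were not analysed here.

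A list of 12 genes covered acyl-CoA and malonyl-CoA metabolism, including Mlycd, which breaks down malonyl-CoA, so it does not stand for supply alone. The 10 tested all had lower estimates after DSS in labelled knockout livers, with a median of -0.48. Of these edgeR called 1, the acyl-CoA synthetase Slc27a5 at -0.73 (SE 0.20, adjusted p = 0.0487), and DESeq2 called 5 lower and limma-voom 3. In wild-type livers 9 of 10 had lower estimates, with a median of -0.26, 1 had an unadjusted p under 0.05, and edgeR, DESeq2 and limma-voom each called 0. Of 7 tested genes of the peroxisomal oxidation that shortens the longest chains, 2 fell after DSS in labelled knockout livers. These were Acaa1a at -1.06 (SE 0.12, adjusted p = 0.000802) and Scp2 at -1.18 (SE 0.31, adjusted p = 0.0372). The medians of these 7 genes were -0.92 in labelled knockout and -0.15 in wild-type livers, and Acaa1a also passed the test of the difference between the responses, at -0.90 (SE 0.17, adjusted p = 0.0431), a call lost under 15 of its 20 alternatives, with an adjusted p of up to 0.137 on leaving out 1 library. Acaa1a shares 67 exonic bases with Myd88 on the other strand and has a close copy, Acaa1b, with which counting could have split its reads. Of the 9 acyltransferases that place long chains in phospholipids and the 4 ceramide synthases tested, edgeR called 0 in all 5 comparisons, and at most 3 and 2 had an unadjusted p under 0.05 in any of them. After DSS in labelled knockout livers 1 acyltransferase and 2 ceramide synthases had an unadjusted p under 0.05, DESeq2 called 1 and 2, and limma-voom called 1 and 1, and both called 0 in the other comparisons.

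**Figure D4:**
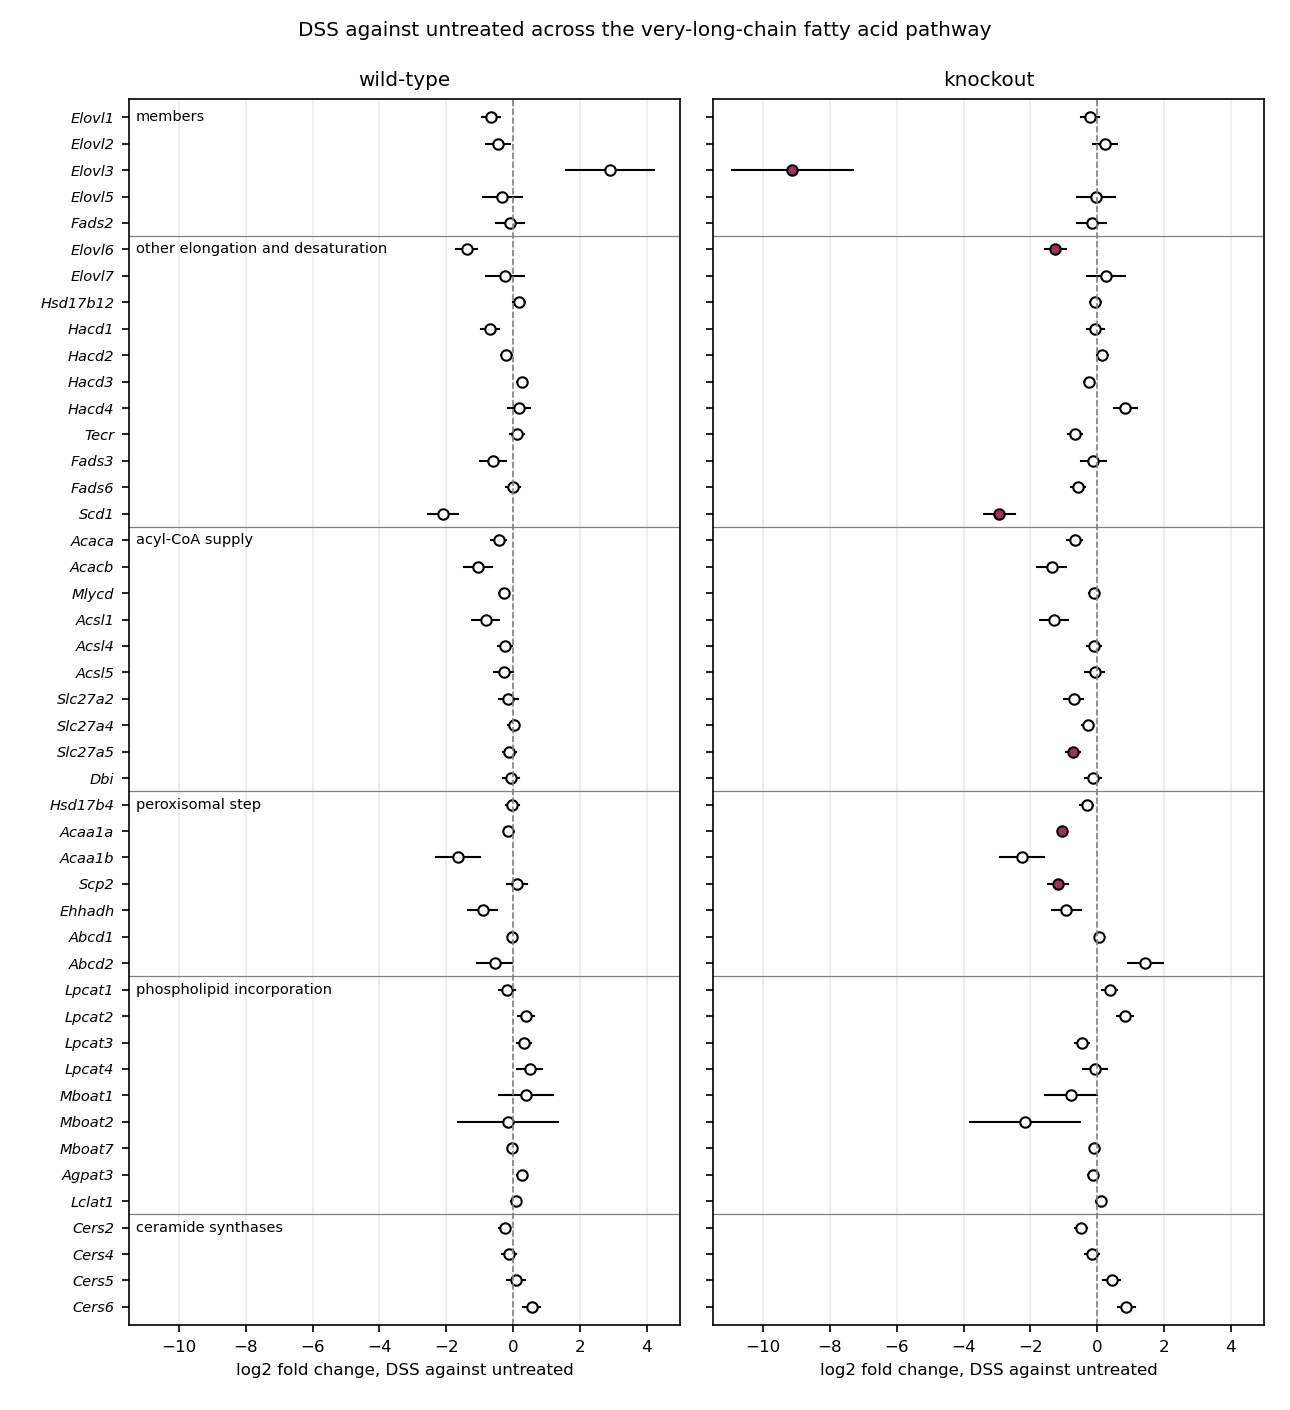
Log2 fold change after DSS (circles) with 1 SE (lines) in wild-type and labelled knockout livers for the 5 genes and 41 further genes of the pathway, with filled circles for an adjusted p under 0.05. Scd4, with very low counts, is left out; Elovl3 has the largest absolute values, 2.91 and -9.12, and the filled points are all in the labelled knockout panel.

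Regulators of these genes were taken from a list of 20, of which 17 were tested. In labelled knockout livers after DSS 4 fell: Mlxipl, the carbohydrate response factor, at -1.19 (SE 0.27, adjusted p = 0.0224), Ppara, the fatty acid receptor of liver, at -0.93 (SE 0.19, adjusted p = 0.0145), Hnf4a at -0.70 (SE 0.18, adjusted p = 0.0325) and the clock repressor Nr1d2 at -1.54 (SE 0.36, adjusted p = 0.0266). There edgeR called 0 higher, while DESeq2 called 2 higher and 5 lower and limma-voom 2 higher and 4 lower. In wild-type livers 3 of the 17 had an unadjusted p under 0.05, and edgeR, DESeq2 and limma-voom each called 0. Between genotypes Nr1d1, the clock repressor paired with Nr1d2, measured 71.5, 108 and 97.6 CPM in untreated wild-type and 4.98, 8.61 and 7.45 CPM in untreated labelled knockout livers. After DSS it measured 57.5, 43.3 and 91.3 CPM in wild-type and 4.07, 3.15 and 4.18 CPM in labelled knockout livers. Its log2 difference was -3.72 (SE 0.30, adjusted p = 0.000362) without treatment and -4.08 (SE 0.31, adjusted p = 0.00016) after DSS, and both calls held under all 21 alternatives run, sex from Xist included. Nr1d1 shares 263 of its 3124 exonic bases with Thra on the other strand, and reads in them could not be assigned. Ppard was higher, at 1.68 (SE 0.31, adjusted p = 0.0486), and Nr1d2 lower, at -2.01 (SE 0.36, adjusted p = 0.0481), in labelled knockout livers after DSS, and these calls were lost under 16 and 13 of the 21 alternatives. Srebf1, Nr1h3 and Insig2 were not analysed here.

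Of the pathway and regulator calls after DSS in labelled knockout livers, Scd1 and Acaa1a kept theirs on leaving out any 1 of the 12 libraries. The call of Slc27a5 was lost without 11 of the 12 (adjusted p up to 0.171), that of Scp2 without 7, those of Mlxipl and Hnf4a without 6 each, that of Elovl6 without 5, that of Nr1d2 without 3 and that of Ppara without 2. All 9 were lost with sex from Xist as a covariate. In that fit 4 genes were called over the whole table in this comparison, against 1240 without the covariate. Outside the labelled knockout DSS group only wild-type untreated replicate 3 had Xist over 100 CPM, so the sex term rested on that liver. Its Y-linked sum was 30.1 CPM, so its sex is not clear from these transcripts. The part of sex in these 9 calls was not tested further.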

How the data were processed

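Liver RNA-seq of 12 mice was analysed in 4 groups of 3, taken from the sample labels. According to the labels and the study's methods, the authors trimmed reads with fastp, aligned them to mm9 with HISAT2 and made gene counts with StringTie, which estimates them from coverage, and the values they deposited are estimated counts as whole numbers with no normalization. The annotation used for counting was not given in the sources used here. Gene names, positions and exon lengths came from GENCODE vM1, which names 28677 of the 51609 rows. Totals of 65879529 to 82850098 estimated counts per library set the precision of the counts, and since they derive from coverage, an estimated count need not be 1 fragment and a floor of 3 counts covers counting error only.

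Counts were tested in R 4.3.3 with edgeR 4.0.16 by robust quasi-likelihood tests in 1 model with 4 groups, after filterByExpr and TMM normalization, with Benjamini-Hochberg adjustment over all 17652 tested genes and a threshold of 0.05. Fold changes are log2 values from this fit with their standard errors, and the interaction is the DSS response in knockout minus that in wild-type mice. Exact permutation tests used log2(CPM + 0.5). The fits were repeated with the DESeq2 1.42.0 Wald test and with limma 3.58.1 (voom, weighted by sample quality). Within edgeR, the size factors of DESeq2, an open filter, a floor of 10 counts per library, a fit to the compared groups alone, a block for the replicate number, a covariate for sex (Xist over 100 CPM) and the removal of each library in turn were tried, and pseudocounts of 0.1 and 2 in the permutation tests. The removal of wild-type untreated replicate 3 and wild-type DSS replicate 2 together was chosen after seeing the data. No 2 libraries of the same group agreed within sampling noise. On simulated data with 200 of 17652 genes changed 4-fold in the wild-type DSS group, 72.5% of these were called and 3.33% of calls were false. The simulation gave each gene the spread typical of its level, with no library that stands apart and no sex difference. These shares therefore need not hold for the livers measured here.

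The 5 genes and the gene lists were chosen with earlier results of these data known, and some genes of the lists are not reported here. The genes named are the 5, those of the pathway and regulator lists that passed the threshold or lie nearest to them in the reaction, sex and clock genes of the lists that moved with them, and the 3 tested genes with the highest Pearson correlation to each in levels, with 1 for deviations from group means. The edgeR p-values set a difference between groups against the spread of mice within groups, which was estimated over all 4 groups with information shared across genes. Promoter windows came from RefSeq (GRCm38.p6), and no coordinates were converted between builds. Plots were drawn with matplotlib 3.10.9 in Python 3.11.15.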

Additional observations from a re-analysis of the deposited data

Results flagged for a closer look

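The edgeR interaction test, labelled knockout minus wild-type, called 7 of the listed genes. This test includes the labelled knockout DSS livers, so its values cannot be told apart from sex read from Xist and the Y-linked genes. The 4 Y-linked genes had log2 differences of -11.61 for Ddx3y (adjusted p = 0.00475), -11.71 for Uty (adjusted p = 0.00378), -10.18 for Kdm5d (adjusted p = 0.00776) and -14.86 for Eif2s3y (adjusted p = 0.0150), and their sum was at most 0.120 CPM in all 3 labelled knockout DSS livers. Eif2s3y was at 0 CPM in each of these livers, so its value is set by the fit and is not a measured fold. Of the female-biased liver genes, Hao2 had 13.27 (adjusted p = 0.0431) and Slc22a26 10.64 (adjusted p = 0.0150). The peroxisomal thiolase Acaa1a had -0.90 (adjusted p = 0.0431). Elovl3, at -12.04, missed the threshold with an adjusted p of 0.0676. Both genotypes add to the values of Hao2 and Slc22a26. After DSS their mean levels went from 59.4 to 0.477 CPM and from 108 to 3.40 CPM in wild-type livers, and from 0.796 to 64.7 CPM and from 4.58 to 229 CPM in labelled knockout livers. The wild-type untreated means rest most on replicate 3, the liver with high Xist, at 137 CPM for Hao2 and 227 CPM for Slc22a26 against 19.8 and 21.6 CPM and 22.6 and 74.8 CPM in replicates 1 and 2. The interaction call of Hao2 was lost under 14 of 19 alternatives, with an adjusted p of up to 0.128 on leaving out 1 library, and that of Slc22a26 under 5 of 20, both with sex from Xist as a covariate among them. Those of Acaa1a and Eif2s3y were lost under 15 of 20 and 6 of 19, and those of Ddx3y, Uty and Kdm5d under 1 of 19 each.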

How the results depend on the processing

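Of the 5 genes, edgeR called 1, Elovl3, after DSS in knockout livers and 0 elsewhere. After DSS in knockout livers the count became 0 with limma-voom and 0 with sex from Xist as a covariate, and ran from 0 to 1 on leaving out each library. With the DESeq2 Wald test it became 1 for the interaction, 1 between genotypes after DSS and 1 between genotypes without treatment. Without both wild-type untreated replicate 3 and wild-type DSS replicate 2, a choice made after seeing the data, it became 1 for the interaction, and on leaving out each library it ran from 0 to 1 for the interaction and 0 to 1 between genotypes after DSS. Elovl3 kept its direction in all 5 comparisons under every alternative. Genes near 0 changed sign. With sex from Xist, Elovl1 became 0.85 after DSS in knockout livers and 1.05 between genotypes after DSS, Fads2 became 0.015 for the interaction and Elovl6 became -0.16 between untreated genotypes. With limma-voom, Elovl5 became 0.18 after DSS in knockout livers and -0.029 between untreated genotypes, and Fads2 became 0.10 after DSS in wild-type livers. Without both libraries, Elovl5 became 0.17 after DSS in wild-type livers, -0.13 between genotypes after DSS and -0.23 for the interaction, Fads2 became 0.29 after DSS in wild-type livers, and Elovl6 became -0.032 between genotypes after DSS and -0.14 between untreated genotypes. The cause of these changes was not tested.

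On leaving out each library, Elovl5 ran from -0.96 to 0.14 after DSS in wild-type livers, -0.33 to 0.55 after DSS in knockout livers, -0.53 to 0.35 between untreated genotypes, -0.13 to 0.98 between genotypes after DSS and -0.19 to 0.92 for the interaction. Fads2 ran from -0.67 to 0.31 after DSS in wild-type livers, -0.27 to 0.0097 after DSS in knockout livers and -0.49 to 0.51 for the interaction. Elovl1 ran from -0.14 to 0.084 between genotypes after DSS. Elovl6 ran from -0.16 to 0.37 between untreated genotypes, -0.14 to 0.38 between genotypes after DSS and -0.19 to 0.34 for the interaction. Libraries with the same replicate number in different groups had correlations of -0.07 to 0.21 over their 18 pairs, so the numbers were not taken as pairs. With the replicate block Elovl3 after DSS in knockout livers was -8.93 (adjusted p = 0.0462), Elovl5 became 0.13 after DSS in knockout livers and -0.18 between untreated genotypes, and genes called over the whole table were 33 between untreated genotypes and 128 for the interaction, against 11 and 72.

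In the order wild-type DSS, knockout DSS, genotypes untreated, genotypes after DSS and interaction, genes called over the whole table numbered 121, 1240, 11, 59 and 72 in edgeR, 868, 2375, 341, 601 and 718 in DESeq2, 218, 1798, 92, 31 and 71 in limma-voom and 49, 4, 2, 5 and 4 with sex from Xist. With only the groups compared they were 21, 1698, 60 and 41 for the comparisons other than the interaction, which needs all groups. On leaving out each library the knockout DSS count ran from 241, without knockout untreated replicate 2, to 1736, without wild-type DSS replicate 2. Depth limits Elovl3 in knockout DSS livers, at 10 to 20 counts.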
